A study of Rattus norvegicus with 6 samples.

Results

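MiR-21, miR-146a, miR-146b and miR-155 are the microRNAs (miRNAs) most often linked to inflammation, and the array used here carries a probe for each of both arms of all 4 precursors, 8 probes of 761 for rat miRNAs. They were chosen by name, as every probe for either arm of these precursors, but with earlier results of these data known. The samples were total RNA from the hearts of adult Sprague Dawley rats, 3 control animals (9, 10 and 11) and 3 animals (13, 14 and 16) with chronic colitis brought on by dextran sodium sulfate (DSS), a polymer that damages the lining of the colon. DSS was given as a 3% solution to drink for 5 days followed by 9 days of plain water, in 4 cycles over 8 weeks, and the study's methods describe the rats as male littermates. Each animal gave 1 array with a single dye, so the p-values measure the spread between 3 animals a group. The comparison asks whether colitis changes these miRNAs in the heart.

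A miRNA precursor folds into a hairpin whose 5′ side (5p) and 3′ side (3p) can each give a mature strand. The mature strand guides a silencing complex to messenger RNAs that pair with its seed, bases 2 to 8. MiR-146a and miR-146b are induced by NF-κB and lower the adaptors TRAF6 and IRAK1, which makes them a brake on Toll-like receptor signalling. MiR-155 is induced in activated macrophages and lymphocytes and lowers SHIP1 and SOCS1, inhibitors of inflammatory signalling. MiR-21 is abundant in many tissues, lowers PDCD4 and SPRY1, and is known in the heart from fibroblasts.

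The mature sequences are shown because 2 of the probes, those for miR-146a-5p and miR-146b-5p, have nearly the same target. The array names them rno-miR-21-5p, rno-miR-146a-5p, rno-miR-146b-5p, rno-miR-155-5p and rno-miR-155-3p, and likewise for the other 3p strands. All 8 sequences in RefSeq (rat assembly GRCr8) equalled the targets that the array lists, and the capitals mark the seed.
miR-21-5p: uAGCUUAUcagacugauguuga
miR-21-3p: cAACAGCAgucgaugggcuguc
miR-146a-5p: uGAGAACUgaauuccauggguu
miR-146a-3p: aCCUGUGAaguucaguucuuu
miR-146b-5p: uGAGAACUgaauuccauaggcugu
miR-146b-3p: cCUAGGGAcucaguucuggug
miR-155-5p: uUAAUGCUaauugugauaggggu
miR-155-3p: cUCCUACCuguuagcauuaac
MiR-146a-5p and miR-146b-5p share the seed GAGAACU and their first 17 bases. Counted from the 5′ end, with the base of miR-146a-5p first, they differ by G18A and U21C, and miR-146b-5p has 2 further bases at its 3′ end. Cross-hybridization between these probes was not tested. The other 6 sequences had no such neighbour, since the nearest target on the array was 7 edits away for miR-21-5p (miR-101a-5p) and 8 edits away for the others, the nearest or one of the nearest being let-7f-2-3p for miR-21-3p, miR-128-3p for miR-146a-3p, miR-490-5p for miR-146b-3p, miR-26b-5p for miR-155-5p and miR-130b-5p for miR-155-3p.

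The hairpins of the precursors with a 5p strand that rose are shown with both mature strands in capitals.
Mir146a: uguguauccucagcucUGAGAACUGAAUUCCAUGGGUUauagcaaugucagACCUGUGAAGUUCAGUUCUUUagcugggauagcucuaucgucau
Mir155: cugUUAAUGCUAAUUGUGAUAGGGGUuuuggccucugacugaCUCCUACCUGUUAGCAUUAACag
In GRCr8, Mir146a lies on the minus strand at chr10:28349996-28350090, inside the long noncoding RNA gene LOC134480673. Mir155 lies on the plus strand at chr11:37261114-37261178, inside its host gene Mir155hg. Mir21 lies on the minus strand at chr10:71902600-71902691, 532 bases from Vmp1, and Mir146b on the plus strand at chr1:255144860-255144947, within the bounds of C1h10orf95.

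The arrays differed in background and in how many miRNAs they detected. A miRNA was detected on an array where at least 2 of its 4 spots passed. A spot passed if it exceeded the background by 3 times the SD among empty spots. The scanner's SD for that single spot also had to be under 0.5 of its signal above background. The background was between 35.4 and 95.4 scanner units, 223 to 365 miRNAs were detected on an array, and 1.27% to 32.1% of the empty spots themselves exceeded the 3 SD limit. Signal of the spike-in probes was lower on the DSS arrays, with mean log2 values of 10.69, 10.86 and 10.94 in the controls and 10.49, 9.44 and 9.71 after DSS. Levels below are log2 signals after background correction and cyclic LOWESS, a scaling that assumes most miRNAs do not move. Each probe has its own brightness, so levels are compared between arrays and not between miRNAs.

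Of the 8 miRNAs, 4 were detected on at least 3 of the 6 arrays and were tested, and they were the 5p strands. MiR-146a-5p and miR-155-5p were higher in hearts of DSS animals by limma at an adjusted p under 0.05, none was lower, and miR-21-5p and miR-146b-5p did not pass. Across all 282 miRNAs tested the same rule called 139, which is 49.3%, with 20.9% higher and 28.4% lower in DSS, so 2 of 4 is close to the share over all miRNAs. MiR-155-5p entered the test only through the DSS arrays, where it was detected on 3 of 3 against 0 of 3 control arrays, so its call is not independent of the filter, and miR-146a-5p alone passed among the 3 strands detected on all 6 arrays. The median change of all 282 was -0.06 on the log2 scale.

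**Figure D1:**
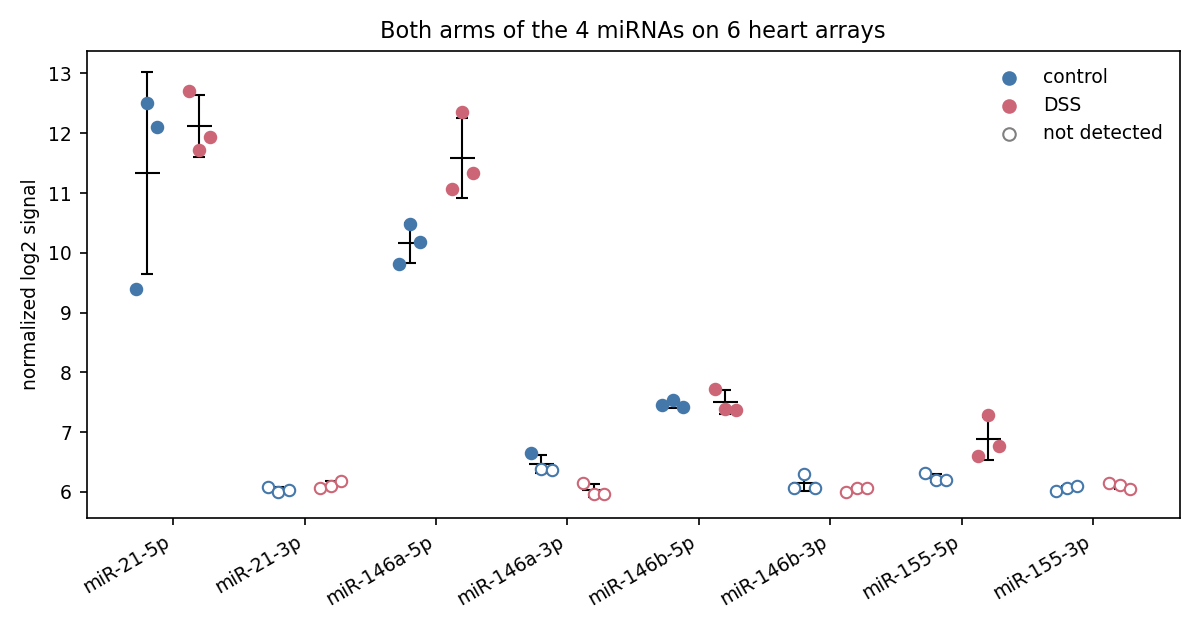
Normalized log2 signal (y axis) of the 8 miRNA strands (x axis) on the 6 arrays, with the mean and SD over 3 animals a group as bars and open points where the strand was not detected. The 3 DSS points of miR-146a-5p and miR-155-5p lie above all 3 control points, while miR-21-5p spans 9.40 to 12.50 in the controls. Among the 282 tested miRNAs, 66.3% had groups that did not overlap, in either direction.

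MiR-146a-5p, the strand of the NF-κB feedback loop, was higher in all 3 DSS animals than in any control. Its log2 level was 9.82, 10.49 and 10.19 in control animals 9, 10 and 11, and 11.07, 12.35 and 11.33 in DSS animals 13, 14 and 16. The groups did not overlap, which held in either direction for 66.3% of the 282 tested miRNAs, and animal 14 stood highest. The mean was 10.16 ± 0.34 (SD, n = 3) in controls and 11.59 ± 0.67 (SD, n = 3) in DSS, a log2 difference of 1.42 ± 0.37 (SE), or 2.68-fold, with a 95% interval of 0.54 to 2.30 and an adjusted p of 0.0213 (limma). The authors' processed intensities gave the same order of groups, with 959, 1541 and 1179 in controls and 2401, 4145 and 2687 in DSS. All 4 of its spots passed on all 6 arrays, and no empty spot was brighter than their median. It was higher in DSS in 23 of 23 processing alternatives and passed the threshold in 18. MiR-146a-5p kept the same 1.42 where only the filter, the detection limit or the p-value calculation changed, so its direction there could not differ. It did not pass in 3 of the 6 fits with 1 array left out, where the limma adjusted p was 0.108 without control animal 9 (difference 0.98), 0.0713 without control animal 11 (1.37) and 0.0672 without DSS animal 16 (1.56).

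MiR-146b-5p, which carries the same seed from another chromosome, differed by less than the spread between animals. Its log2 level was 7.46, 7.53 and 7.42 in controls and 7.73, 7.39 and 7.37 in DSS. The strand was dim, with detection on 2 of 3 control arrays under a 5 SD limit or 3 SD counted from the median empty spot. The groups overlapped, with DSS animal 13 highest and the other DSS animals below all 3 controls. The difference was 0.03 ± 0.18 (SE), with a 95% interval of -0.40 to 0.45 and an adjusted p of 0.889 (limma). This value depends on the scaling. It was 0.65 without normalization and 0.28 with quantile normalization. With 75th-percentile scaling it was 0.46 (detected probes) and 0.28 (all probes), and none of these passed. With arrays scaled to the spike-in probes it was 1.60 higher in DSS (limma adjusted p 0.00123) and with 5S rRNA probes 1.07 higher (adjusted p 0.0249), settings in which the median of all tested miRNAs moved to 1.31 and 0.78. Relative to that median miR-146b-5p was 0.29 higher in both, and also without normalization. These scalings move every miRNA of an array by 1 factor, so this value could not differ between them.

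The pair was then compared within each array, where a scaling of the corrected signals by 1 factor cancels. A difference in brightness between arrays before correction does not cancel fully. The background correction added a fixed offset to every signal, which weighs more on the dim miR-146b-5p than on miR-146a-5p. The log2 difference between the signals of miR-146a-5p and miR-146b-5p before normalization was 3.08, 3.30 and 3.19 in control animals 9, 10 and 11, and reached 3.60, 4.09 and 3.76 in DSS animals 13, 14 and 16. Every DSS array exceeded every control array, and the group difference of 0.63 gave p = 0.1 in a two-sided exact permutation test over the 20 arrangements, the smallest p that 3 against 3 arrays allow (0.6 after adjustment over the 6 pairs of tested strands). After LOWESS it was 1.39 (exact p = 0.1), and with plain background subtraction, without that offset, 0.32 (exact p = 0.3), where the groups overlapped. The separation of the groups therefore depended on the background correction. The offset between the strands has no meaning in itself, because the probes differ in brightness.

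MiR-155-5p, the strand of activated leukocytes, passed the detection rule in all 3 DSS animals and in 0 of 3 controls. Its log2 level was 6.32, 6.19 and 6.19 in controls and 6.60, 7.29 and 6.77 in DSS. Every DSS animal was above every control, a separation found in either direction for 66.3% of the 282 tested miRNAs. Animal 14 was again highest. The mean was 6.24 ± 0.07 (SD, n = 3) in controls and 6.89 ± 0.36 (SD, n = 3) in DSS, with an adjusted p of 0.0476 (limma) in a test that the strand entered through its DSS arrays. Since the control signal was not well above background, the measured difference of 0.65 has no reliable size. With each control set at the dimmest signal that counted as detected on its array, the group means differed 1.17-fold. This figure takes no account of the spread between animals. DSS animal 13 (6.60) lay below the mean of those control limits (6.66). The authors' processed intensities were 3, 1 and 3 in controls and 23, 68 and 35 in DSS.

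The spots show how near the limit this strand was. The median of its 4 spots stood 1.71, 5.14 and 5.46 scanner units above background in controls, and 33.3, 117 and 46.6 in DSS. Of the empty spots, 97.3%, 99.8% and 72.5% were brighter than that median on the control arrays, against 0.316%, 0% and 4.91% on the DSS arrays of animals 13, 14 and 16. In DSS 4, 4 and 2 of its spots passed. A stricter limit of 5 SD left 1 DSS array with detection, and 3 SD counted from the median empty spot left 2. The strand was higher in DSS in 20 of 20 alternatives that tested it, passing the threshold in 9, with differences from 0.44 to 3.62 and adjusted p-values from 0.00265 to 0.273. It kept the reported 0.65 where only the filter, the detection limit or the p-value calculation changed, so its direction there could not differ.

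**Figure D2:**
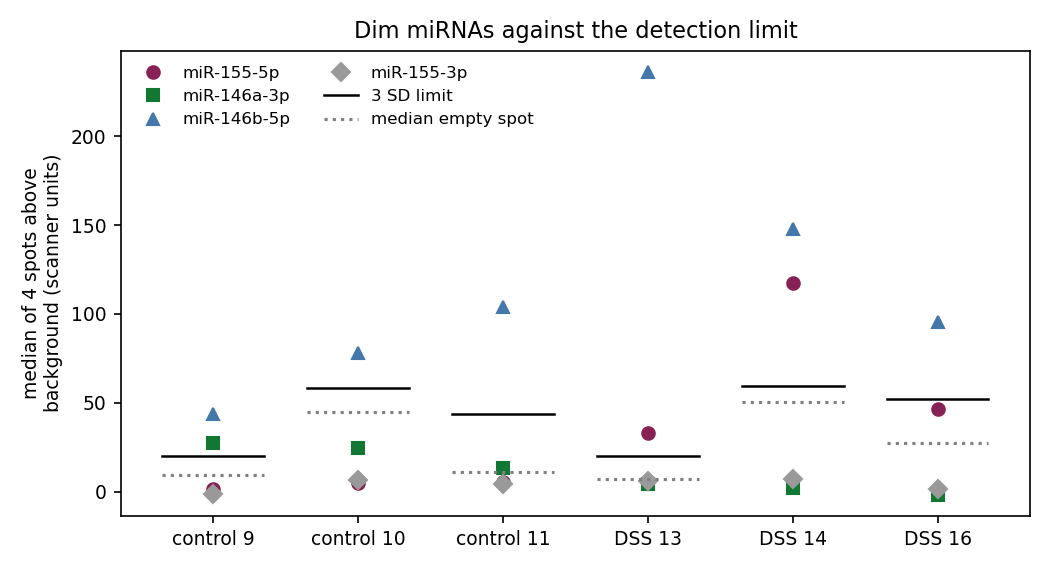
Median of 4 spots above background in scanner units (y axis) for 4 dim strands on each array (x axis), with the 3 SD limit as a solid line and the median empty spot as a dotted line. MiR-155-5p is at 33.3, 117 and 46.6 on the DSS arrays and at or below 5.46 on the control arrays, and miR-155-3p stays under the limit on all 6.

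MiR-21-5p was detected on all 6 arrays and did not differ between the groups beyond their spread. Its log2 level was 9.40, 12.50 and 12.11 in controls and 12.70, 11.71 and 11.93 in DSS, so the groups overlapped and control animal 9 stood alone. The mean was 11.34 ± 1.69 (SD, n = 3) in controls and 12.12 ± 0.52 (SD, n = 3) in DSS, and the difference of 0.78 ± 0.80 (SE) had a 95% interval of -1.13 to 2.69 and an adjusted p of 0.427 (limma).

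The low value of control animal 9 was shared by all its spots, which had a coefficient of variation of 6.10% between them. The authors' processed intensities show the same gap, with 739 on this array against 6473 and 4799 in the other controls and 7846, 2500 and 3817 in DSS. MiR-21-5p had the largest control SD of the 282 tested miRNAs, 1.69 against a median of 0.29, and on array 9 its difference from the mean of the other controls was -2.91, the lowest of all 282 by this measure. Without this animal the direction turned, to -0.58 (limma adjusted p 0.307). Why the animal differed was not tested.

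**Figure D3:**
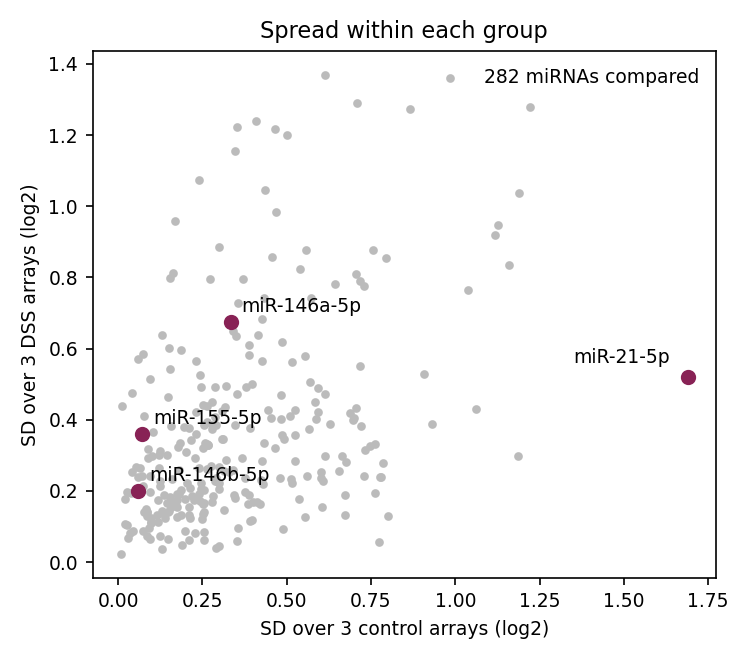
SD of the normalized log2 signal over the 3 control arrays (x axis) and the 3 DSS arrays (y axis) for the 282 tested miRNAs, with the 4 strands in dark red. MiR-21-5p lies farthest right, with a control SD of 1.69.

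The 3p strands gave little signal. MiR-21-3p, miR-146b-3p and miR-155-3p were detected on no array, and miR-146a-3p on that of control animal 9 alone, where 3 of its 4 spots passed. The log2 level of miR-146a-3p was 6.65, 6.39 and 6.36 in controls and 6.15, 5.97 and 5.97 in DSS. On the arrays without detection, 44.1% to 98.3% of the empty spots were brighter than its median. The lower DSS values are therefore at background and give no direction of change. MiR-146a-3p was not tested, and no bound on its fold can be given. In all, 22 of the 48 pairs of strand and array were detected. On this array 282 precursors have probes for both arms, of which 64 had the 5p strand alone tested, 51 the 3p strand alone and 50 both.

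The other tested miRNAs with the most similar pattern over the 6 arrays were found by the root mean square (RMS) difference of log2 values, each miRNA centred on its own mean. MiR-146a-5p was nearest to miR-466d (RMS difference 0.13), miR-466b-5p (0.13) and miR-3574 (0.14), against a median of 0.95 over all tested miRNAs. MiR-155-5p was nearest to miR-762 (0.11), miR-672-3p (0.15) and miR-138-1-3p (0.16), against a median of 0.61. MiR-146b-5p was nearest to miR-34b-3p (0.09), miR-29b-5p (0.10) and miR-874-5p (0.13), against a median of 0.49. No miRNA followed miR-21-5p closely, the nearest being miR-15b-5p (0.62), miR-92b-3p (0.64) and miR-494-3p (0.68). These are descriptions over 6 arrays that share their normalization.

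A list of 18 other miRNAs linked to inflammatory signalling moved both ways. Of the 13 tested, 3 were higher in DSS by limma, 6 were lower and 4 did not pass, with a median change of -0.60 against -0.06 over all tested miRNAs, where 49.3% were called, 20.9% higher and 28.4% lower. The miRNAs that rose were let-7a-5p, which lowers interleukin-6, by 3.07 ± 0.60 (SE, adjusted p 0.0151), miR-181b-5p, which lowers importin-α3 in NF-κB signalling, by 1.71 ± 0.26 (adjusted p 0.0151), and miR-125a-5p, which lowers the NF-κB regulator TNFAIP3, by 1.21 ± 0.38 (adjusted p 0.0356). Those that fell were miR-29b-3p (-2.04), miR-16-5p (-1.58), miR-199a-5p (-1.58), miR-223-3p (-1.35), miR-34a-5p (-0.89) and miR-222-3p (-0.59), with adjusted p-values between 0.0151 and 0.0393. For miR-29b-3p the groups overlapped. The tested miRNAs that did not pass had differences of -1.44 (miR-15a-5p, adjusted p 0.0597), -0.60 (miR-9a-5p, 0.304), -0.50 (miR-221-3p, 0.0669) and -0.22 (miR-125b-5p, 0.370). When spike-in probes set the scale, 5 of the list were higher and 0 lower. With 5S rRNA probes 2 were higher and 0 lower, and without normalization 2 were higher and 2 lower. The falls therefore depend on the scaling.

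Because miR-146a and miR-155 are also carried by leukocytes, the leukocyte miRNAs were read beside them. Of 6 listed, 3 were tested. MiR-150-5p, known from mature lymphocytes, was higher in DSS by 1.59 (limma adjusted p 0.0201), miR-223-3p, known from myeloid cells, was lower by 1.35 on the log2 scale (change -1.35, adjusted p 0.0299), and miR-342-3p changed by -0.48 (adjusted p 0.0440). MiR-142-3p and miR-142-5p, which define blood cells, were each detected on 1 control array and on no DSS array, and miR-223-5p on none. The log2 of the summed signals of the list, in which bright probes weigh most, was 11.48 to 12.43 in controls and 13.14 to 13.35 in DSS. Without miR-150-5p, the brightest of these miRNAs, it was 9.97 to 10.30 in controls and 9.42 to 9.66 in DSS. Their part in the rise of miR-146a-5p and miR-155-5p was not tested. In RNA of heart tissue, fewer cells of a type and less RNA per cell cannot be told apart.

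The tissue label was read from heart muscle miRNAs. MiR-1-3p, miR-133a-3p, miR-133b-3p and miR-499-5p were detected on all 6 arrays, while miR-208a-3p was detected on 1 and miR-208b-3p on none. The other strand of miR-208a, miR-208a-5p, was not on the list and was detected on all 6. Of the 3 fibroblast miRNAs, read beside miR-21-5p, miR-214-3p was higher in DSS by 1.12 (limma adjusted p 0.0224), and miR-199a-3p (-0.75) and miR-199a-5p (-1.58) were lower. The log2 of their summed signals was 12.23 to 12.26 in controls and 11.75 to 12.15 in DSS. Without the brightest, miR-199a-3p, it was 10.16 to 10.75 in controls and 10.46 to 11.31 in DSS, ranges that overlapped. The part of the fibroblast miRNAs in the values of miR-21-5p was not tested.

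**Figure D4:**
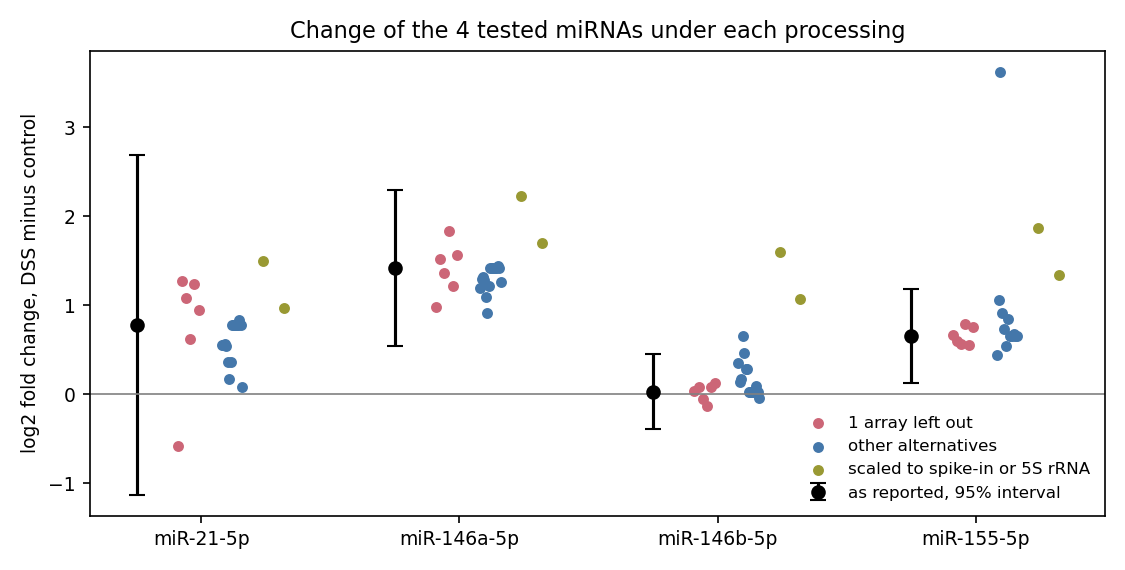
Log2 fold change, DSS minus control (y axis), of the 4 tested strands (x axis), with the reported value and its 95% interval in black and the values under the processing alternatives as coloured points. MiR-146a-5p and miR-155-5p stay above 0, the interval of miR-155-5p resting on controls at background, miR-21-5p falls to -0.58 without control animal 9, and miR-146b-5p rises to 1.60 and 1.07 when scaled to spike-in or 5S rRNA probes.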

How the data were processed

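MiRNAs were measured on 6 single-dye (Cy5) arrays, 3 control and 3 DSS hearts, grouped by the titles and treatment labels. The deposited scanner values are intensity medians for 3968 spots an array, of which 632 are empty, before normalization. The authors' processed intensity values, background-subtracted and LOWESS-normalized per the study's methods, served as an alternative. Here the scanner medians were corrected with normexp (offset 50) in limma 3.58.1 (R 4.3.3), the log2 values of 4 spots averaged, and arrays normalized by cyclic LOWESS (span 0.7, 3 iterations) over 761 miRNA probes. For detection, background was taken as the median over the 25% of miRNA spots with the lowest signal. Testing was limited to the 282 miRNAs found on 3 or more of the 6 arrays, with lmFit and eBayes, with Benjamini-Hochberg adjustment and a threshold of 0.05, and 479 were not tested. The code was tested on simulated data. The members and lists were chosen with earlier results of these data known. Named miRNAs were all 8 members, the tested miRNAs of the inflammatory list, the leukocyte miRNAs detected at least once, the 3 with the most similar pattern and the nearest sequence for each member; the heart muscle and fibroblast miRNAs are named beside them. Erythroid, endothelial and smooth muscle miRNAs were listed too and are given in the closing section. The alternatives changed the background correction, the scaling, the filter, the detection limit, the spot summary, the test and the arrays included. The number of arrays limits the precision.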

Additional observations from a re-analysis of the deposited data

How the results depend on the processing

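Of the 4 tested strands, 2 passed as reported, one of them miR-155-5p, which was tested only because it was detected on the DSS arrays. The count was 1 with plain background subtraction (floor 32), without normalization, with either 75th-percentile scaling, with detection required on all 6 arrays, with a 5 SD limit and with the limit from the median empty spot, 0 without a filter on dim probes and with the methods' t-test, 3 with spike-in or 5S rRNA scaling, and 0 to 2 with 1 array left out. MiR-146a-5p kept 1.42 without the filter (adjusted p 0.0655) and with the t-test (0.0712), and gave 0.98 to 1.84 with 1 array left out. MiR-155-5p, not tested under the 3 stricter detection rules, gave differences that did not pass of 0.44 (plain subtraction), 0.91 (no normalization), 0.73 and 0.54 (75th percentile of detected and of all probes), and 0.65 (no filter, t-test). It passed at 1.86 (spike-in), 1.34 (5S rRNA), and 1.06 and 3.62 (the authors' values, log2 of value + 32 and + 1), and gave 0.55 to 0.78 with 1 array left out. MiR-146b-5p passed at 1.60 (spike-in) and 1.07 (5S rRNA), was -0.043 with array weights and -0.13 to 0.13 with 1 array left out. MiR-21-5p gave -0.58 to 1.27 with 1 array left out and up to 1.495 (spike-in, adjusted p 0.0568) otherwise. The inflammatory list had 9 calls, 4 without normalization, 5 with spike-in scaling and 0 to 8 with 1 array left out. Of the within-array differences, miR-146b-5p over miR-21-5p turned to -0.75 and miR-155-5p over miR-21-5p to -0.13 with LOWESS, and miR-146b-5p over miR-155-5p to 0.21 with plain subtraction. The cause was not tested.

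Calls over all 282 miRNAs fell from 139 to 0 without DSS animal 16 (131 at an unadjusted p under 0.05 by limma, smallest adjusted p 0.0608), to 65 without DSS animal 14, to 77 without control animal 9 and to 87 without control animal 11. Without a filter 74 of 761 passed, and the methods' t-test called 0 (155 unadjusted). Scaled to the spike-in probes, 168 were higher and 10 lower, and to 5S rRNA 129 and 14. No paired analysis was possible because the groups share no animal numbers.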

Other observations

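Other cell type miRNAs listed beside the inflammatory ones also moved both ways. Of 4 erythroid miRNAs, miR-486 was higher in DSS by 2.36 (limma adjusted p 0.0151), miR-451-5p (-2.53, adjusted p 0.0161) and miR-144-5p (-0.94, adjusted p 0.0224) were lower, and miR-144-3p was detected on no array. The endothelial miR-126a-3p changed by -1.28 (adjusted p 0.0229), and miR-126a-5p by -1.21 without passing (adjusted p 0.237). Of the smooth muscle pair, miR-145-5p changed by -0.98 (adjusted p 0.0170), and miR-143-3p by -0.47 without passing (adjusted p 0.0910). Of the heart muscle miRNAs, miR-1-3p was higher by 3.11 (adjusted p 0.0151) and miR-499-5p changed by -2.09 (adjusted p 0.0213), while miR-133a-3p (-0.67, adjusted p 0.0527) and miR-133b-3p (-0.34, adjusted p 0.294) did not pass.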
